A study of Homo sapiens with 6 samples.

Results

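The short arm of human chromosome 17 and the start of its long arm, from the 17p end to 38.1 Mb (build hg19, band 17q12), held 1163 of the 58926 open regions found in the series. An open region here is a stretch of DNA covered by an ATAC-seq peak in at least 1 library, with peaks of the 6 libraries merged where they overlapped by at least 1 bp. ATAC-seq uses a transposase that inserts sequencing adapters into DNA not shielded by nucleosomes, so that fragments pile up over active promoters, enhancers and other accessible sites. The segment was chosen on measured values: regions called only in the wild-type libraries outnumbered those called only in the NuMA-depleted libraries on chromosome 17, with a group between 15 and 16 Mb. Counts of regions by group are therefore given as a description, with no test.

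The libraries came from HCT116, an established human colon cancer cell line. In 3 libraries both the genotype and the treatment were labelled as NuMA depletion (titles with AID), and in the other 3 as wild type (titles with NC). The sources used here do not give how or for how long NuMA was depleted, nor whether the cells were 1 clone. The labels do not say whether the replicates of a group were separate cultures, so a p-value covers only how much these libraries vary, and that variation may be technical.

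NuMA (nuclear mitotic apparatus protein) is a large coiled-coil protein that spreads through the nucleus in interphase and gathers at the spindle poles in mitosis. The series asks whether it helps to maintain local chromatin architecture. In the RefSeq order of chromosome 17 (table of build GRCh38), the landmark genes of this stretch run from the 17p end as PMP22 (a protein of peripheral nerve myelin), RAI1 (a transcriptional regulator), NF1 (neurofibromin, a negative regulator of Ras), CCL2 (a chemokine) and ERBB2 (the receptor tyrosine kinase HER2). The gene tables at hand are on another build than the peak lists, so no gene is assigned to any region and no sequence is shown.

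Each peak carries 2 kinds of value below. The fold enrichment, column 7 of the authors' lists, is the authors' linear ratio of the fragment pileup at the summit to the local background, with 1 added to each. The −log10 q is the authors' adjusted measure of how far the pileup exceeds that background. Both belong to 1 library's own list, and nothing shows that the lists share a scale. The pileup itself, in fragments, was recovered from the fold and the p-value of each peak. A region without a peak in a library was not called there at the authors' threshold. That alone does not make it closed chromatin.

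Over the whole genome, 38466, 45892 and 21783 peaks were listed for NuMA-depleted replicates 1, 2 and 3, against 35502, 38685 and 32503 for wild-type replicates 1, 2 and 3. The estimated depth relative to the mean library was 1.07, 1.21 and 1.11 for the NuMA-depleted replicates, against 0.975, 0.869 and 0.762 for the wild-type replicates. The NuMA-depleted libraries were thus the deeper ones by this estimate, yet their replicate 3 had the shortest list. Because a NuMA-depleted-only region needs a call in that short list, the counts by group below depend on it, and values without it are given beside them.

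Within the segment, 770, 899 and 385 peaks were called in NuMA-depleted replicates 1, 2 and 3, against 660, 775 and 687 in wild-type replicates 1, 2 and 3. The NuMA-depleted values lay on both sides of all wild-type ones, with a mean of 685 ± 267 peaks for NuMA-depleted and 707 ± 60.1 for wild-type libraries (SD, n = 3 each). As a share of each list, the segment took 2.0%, 1.96% and 1.77% of the peaks in the NuMA-depleted libraries, against 1.86%, 2.0% and 2.11% in the wild-type libraries. These shares overlapped, with means of 1.91 ± 0.123% for NuMA-depleted and 1.99 ± 0.125% for wild-type libraries (SD, n = 3 each). The length under peaks was 394 ± 191 kb for NuMA-depleted and 371 ± 22.9 kb for wild-type libraries. The median fold of the segment's peaks was 6.77, 6.49 and 5.97 in NuMA-depleted replicates 1, 2 and 3 and 6.23, 7.05 and 6.44 in wild-type replicates 1, 2 and 3, so these groups overlapped as well.

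The regions were spread unevenly along the segment. The first lay at 65452 to 65758 and was called in NuMA-depleted replicate 2 alone, and the last, at 38083278 to 38084442, was called in all 6 libraries. The largest gap between neighbouring regions, 3.88 Mb, ran from 21454968 to 25334989, around the centromere of chromosome 17. The next largest was 0.768 Mb. The largest gap was taken as the border between a 17p side with 737 regions and a 17q side with 426. To its left stood a region at 21454361 to 21454968 called in all 6 libraries and, before it, one at 21442445 to 21442756 called in NuMA-depleted replicate 2 alone. To its right stood a region at 25334989 to 25335336 called in wild-type replicate 3 alone, and then one at 25524469 to 25524782 called in NuMA-depleted replicates 1 and 2. Elsewhere neighbours were close: the median gap was 14990 bp, and 434 of the 1162 gaps (37.3%) were under 10 kb.

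At the upper limit of the segment, the last 2 regions inside, at 37926223 to 37926771 and 38083278 to 38084442, were both called in all 6 libraries. Their folds over the 6 libraries were 5.97 to 8.31 and 6.61 to 8.04. Just outside the limit, a region at 38108884 to 38109173 was called in NuMA-depleted replicate 2 alone, with a fold of 4.72. The next, at 38109480 to 38109802, was called in NuMA-depleted replicate 1 and in all 3 wild-type libraries, with folds of 6.66 to 8.90. The first region outside thus had a lower fold than either region inside, in 1 library, while the folds of the second overlapped theirs.

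Of the 1 Mb bins that lie wholly inside the segment, 35 held regions and 3, from 22 to 25 Mb, held none. An occupied bin held a median of 31 regions, between 8 and 66, where the median over the 2583 occupied bins of the series was 21.0. The most regions lay at 7 to 8 Mb (66), 17 to 18 Mb (62) and 4 to 5 Mb (57). The fewest lay at 14 to 15 Mb (8), 11 to 12 Mb (12) and 20 to 21 Mb (13). Rich and poor bins were neighbours on the 17p side, where the bin with 8 regions lies next to the one from 15 to 16 Mb with 35. The bin from 7 to 8 Mb also had the most regions called in all 6 libraries, 25. The bin from 32 to 33 Mb, with 17 regions, had 0 called in all 6.

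**Figure D1:**
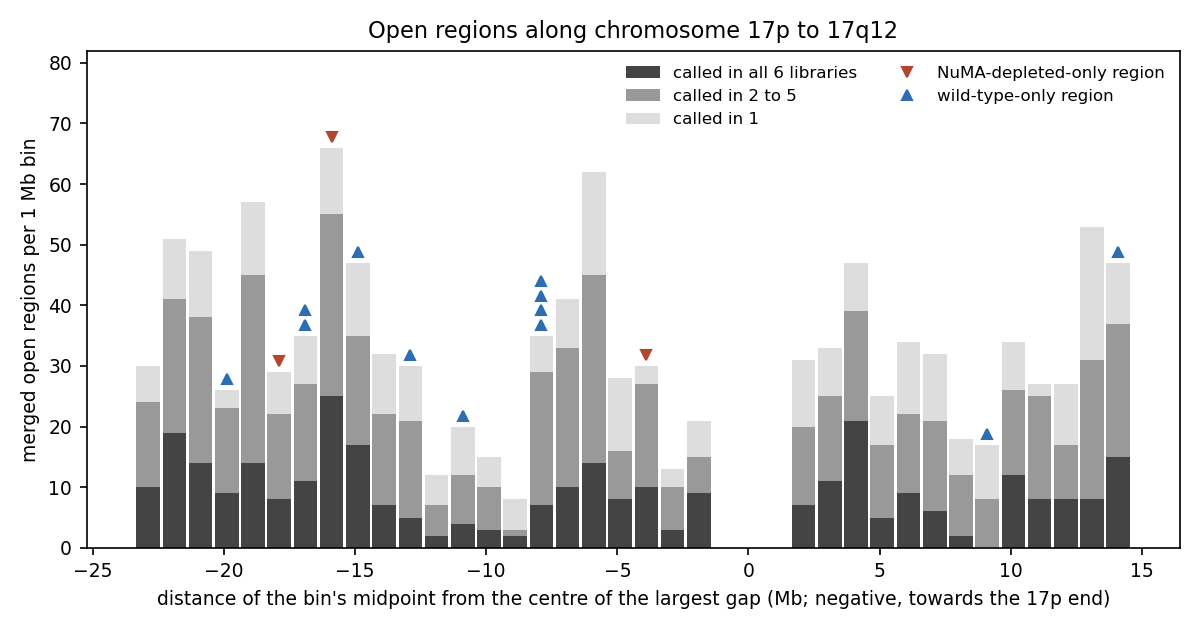
Merged open regions per 1 Mb bin (y axis, count) against the distance of the bin's midpoint from the centre of the largest gap (x axis, Mb, negative towards the 17p end), split by the number of libraries that called them. Triangles above a bar mark regions called in all 3 libraries of one group and in none of the other. 1 bin holds 4 wild-type-only regions, and the 3 bins of the gap are empty.

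The density of peaks was compared between the segment and other parts of the genome within each library, which uses no contrast between the groups. Each of the 6 libraries had fewer peaks per occupied 1 Mb bin in the segment than on the rest of chromosome 17, and more than on all other chromosomes. In NuMA-depleted replicates 1, 2 and 3 the segment held 22, 25.7 and 11.0 peaks per occupied bin, and in wild-type replicates 1, 2 and 3 it held 18.8, 22.1 and 19.6. The rest of chromosome 17 held 29.8, 36.0 and 16.9 in the NuMA-depleted libraries, against 26.3, 30.4 and 26.4 in the wild-type libraries. The other chromosomes held 14.5, 17.3 and 8.26 in the NuMA-depleted libraries, against 13.5, 14.6 and 12.2 in the wild-type libraries. In every library, whatever the length of its list, the segment lay between the other 2 parts of the genome.

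The mean was 19.9 ± 4.97 peaks per occupied bin in the segment and 27.6 ± 6.35 on the rest of the chromosome (SD over 6 libraries), a difference of −7.79 ± 1.52 that was negative in 6 of 6 libraries (two-sided exact permutation test over the 64 sign flips, p = 0.0312, adjusted p = 0.0833). Against 13.4 ± 3.04 on all other chromosomes the difference was 6.45 ± 2.07, positive in 6 of 6 libraries (exact permutation p = 0.0312, adjusted p = 0.0833). A p of 0.0312 is the smallest that 6 libraries can give. After Benjamini-Hochberg adjustment over the 8 comparisons of this kind, 0 passed 0.05, although 3 had an unadjusted p under 0.05.

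The third of these was the strength of the peaks. The median fold in the segment, 6.49 ± 0.382, was below that of all other chromosomes, 6.77 ± 0.440, in 6 of 6 libraries, a difference of −0.278 ± 0.124 (exact permutation p = 0.0312, adjusted p = 0.0833). Against the rest of chromosome 17, at 6.50 ± 0.449, the difference was −0.00646 ± 0.139 and had no common sign (higher in 4 of 6 libraries, exact permutation adjusted p = 0.938). The denominator of the fold also differed between parts of the genome. The median local background, as a multiple of each library's smallest background, was 2.42 ± 0.135 in the segment for NuMA-depleted and 2.81 ± 0.165 for wild-type libraries. On all other chromosomes it was lower, at 2.13 ± 0.0681 for NuMA-depleted and 2.42 ± 0.127 for wild-type libraries. On the rest of chromosome 17, whose median fold was close to the segment's, it was higher, at 3.18 ± 0.0924 for NuMA-depleted and 3.79 ± 0.165 for wild-type libraries (SD, n = 3 each). The part of the background in the fold differences was not tested.

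Peak width and clustering gave smaller differences. The median peak width was 471 ± 47.5 bp in the segment, 470 ± 41.3 bp on the rest of chromosome 17 and 464 ± 37.1 bp elsewhere, with differences of 1.5 ± 15.5 bp and 7 ± 12.1 bp (exact permutation adjusted p = 0.929 and 0.375). Of the segment's peaks, 3.49 ± 0.789% had their next peak less than 1 kb away, against 3.70 ± 0.814% on the rest of chromosome 17 and 2.94 ± 0.731% elsewhere. This share was below that of the rest of chromosome 17 in 5 of 6 libraries and above that of the other chromosomes in 5 of 6 (exact permutation adjusted p = 0.10 for both).

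**Figure D2:**
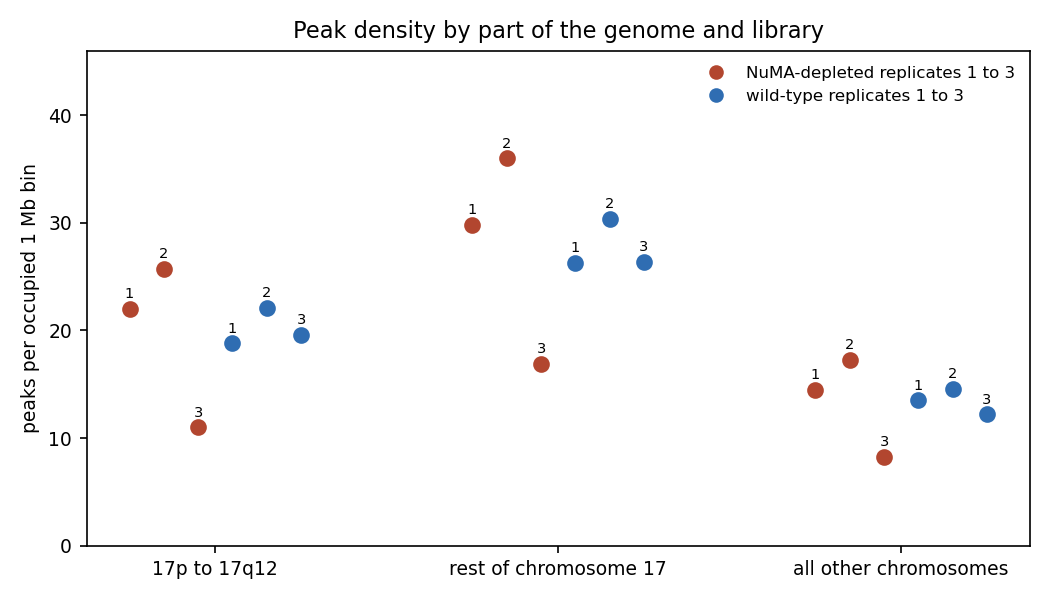
Peaks per occupied 1 Mb bin (y axis) in the segment, on the rest of chromosome 17 and on all other chromosomes, 1 point per library, numbered by replicate. In every library the segment's point lies below that of the rest of chromosome 17 and above that of the other chromosomes; NuMA-depleted replicate 3 is the lowest library in each.

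How far the libraries shared the segment's regions was close to the series as a whole. Regions called in all 6 libraries numbered 324 (27.9%), beside 28.9% over all regions of the series. A further 537 (46.2%) were called in 2 to 5 libraries and 302 (26.0%) in 1, where 25.1% of the series' regions were called in 1. The rest of chromosome 17 differed more, with 32.6% of its regions called in all 6 libraries and 20.7% in 1. The longest list had most single calls and the shortest fewest: NuMA-depleted replicates 1, 2 and 3 had 50, 120 and 3 regions that no other library called, against 32, 55 and 42 for wild-type replicates 1, 2 and 3. NuMA-depleted replicate 3, with 378 regions called, thus had 3 of its own.

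Breadth of sharing went with size. The median width was 293 bp and the median pileup 13.0 fragments where 1 library made the call, against 940 bp and 31.0 fragments where all 6 did. The medians in between were larger with each added library, up to 708 bp and 21.0 fragments for the 140 regions called in 5. The same order was present over the whole series, at 296 bp for 1 library and 914 bp for 6. A merged region can only grow as more libraries contribute a peak, so width and sharing are not independent here.

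By group, 319 regions (27.4%) were called in more NuMA-depleted than wild-type libraries, 356 (30.6%) in more wild-type than NuMA-depleted libraries, and 488 (42.0%) in as many of each. Over the series these shares were 28.5%, 29.1% and 42.4%, close to those of the segment. Only 3 regions (0.258%) were called in all 3 NuMA-depleted libraries and in no wild-type library, where the share over all regions of the series was 0.625%. Conversely, 12 regions (1.03%) were called in all 3 wild-type libraries and in no NuMA-depleted library, where the series' share was 0.592%. This excess is what the segment was chosen for, and nothing is read from it. The rest of chromosome 17 had 9 NuMA-depleted-only and 12 wild-type-only regions, out of a larger total of 1801. As a share of that total, each kind lay between its share in the segment and its share over the series. Of the segment's group-only regions, all 3 NuMA-depleted-only and 10 of the 12 wild-type-only ones were on the 17p side, which holds 737 of the 1163 regions. As shares these were 0.407% and 1.36% of the 17p side's regions, against 0% and 0.469% of the 17q side's. The bin from 15 to 16 Mb, part of the reason for the choice, held 4 of the 10.

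The direction of that count changed with the rule used. What each library contributed to this was not tested. The largest class of regions short of 1 library was the 117 (10.1%) missing in NuMA-depleted replicate 3 alone, against 8.69% over the series. Another 49 regions (4.21%, against 3.94% over the series) were called in NuMA-depleted replicates 1 and 2 and nowhere else. Without replicate 3 there were 52 NuMA-depleted-only and 13 wild-type-only regions. That rule asks for calls in 2 NuMA-depleted but 3 wild-type libraries, so these counts are not on equal terms. Their shares over the series were not computed. With a call in at least 2 of the 3 libraries of a group as the rule, there were 56 NuMA-depleted-only regions (4.82%, beside 5.04% over the series) and 37 wild-type-only regions (3.18%, beside 2.85%). With each list reduced to its 21783 strongest peaks by −log10 p, the numbers were 8 and 8 of 671 regions (1.19% each, beside 1.26% and 0.975% of the series' 34780 regions). Of the original regions, 0 of the 3 and 3 of the 12 were among these. The newly listed regions had a deposited peak in the other group that fell below the cut. The original regions that dropped out had lost at least 1 of their own group's peaks to the cut. The surplus of wild-type-only regions was thus present at the deposited list lengths and absent under each of these 3 settings. In the last 2, the wild-type-only share was nonetheless above the series' share and the NuMA-depleted-only share below it. With cover of at least 50% of the merged region the surplus was present, at 4 NuMA-depleted-only and 11 wild-type-only regions. It was present too with any library but NuMA-depleted replicate 3 left out (7 and 15 without NuMA-depleted replicate 1), which eases the rule for that library's group. It was also present where peaks needed a −log10 q of at least 5, with 3 NuMA-depleted-only and 9 wild-type-only regions, but only 1 of the original 3 and 8 of the original 12 were among them. The series' shares at that q, at that cover and with a library left out were not computed.

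**Figure D3:**
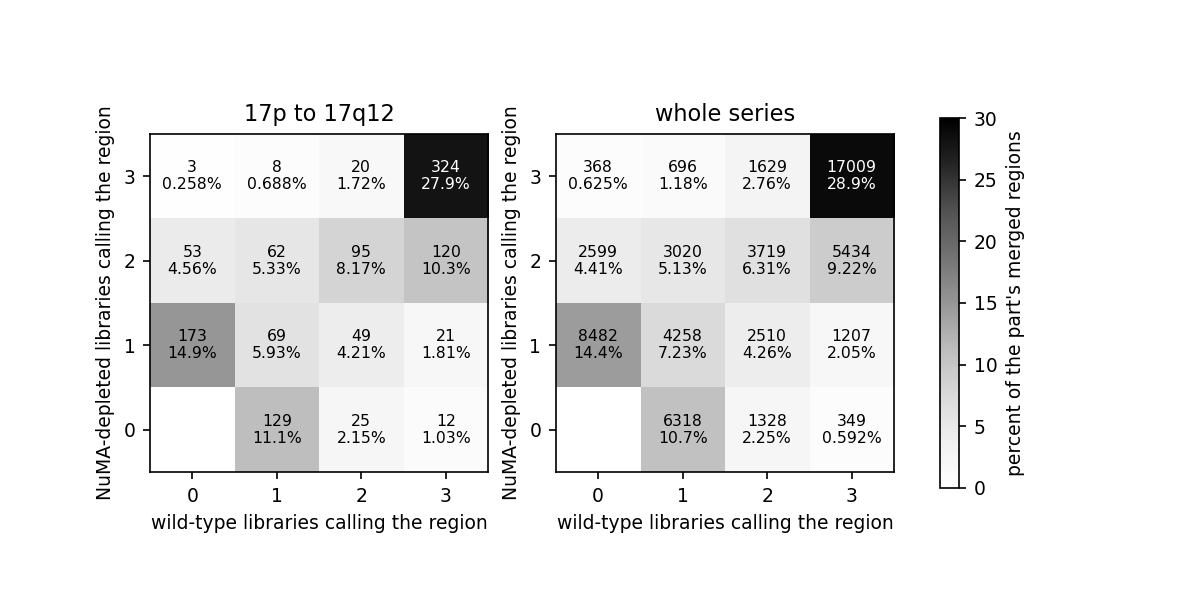
Number and percent of merged regions by how many NuMA-depleted libraries (y axis) and how many wild-type libraries (x axis) called them, in the segment (left) and the whole series (right). The corner with 3 wild-type and 0 NuMA-depleted libraries holds 12 segment regions (1.03%, against 0.592% over the series), the opposite corner 3 (0.258%, against 0.625%), and the cell with 2 NuMA-depleted and 3 wild-type libraries holds 120 (10.3%, against 9.22%).

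The 3 NuMA-depleted-only regions had modest folds. The one at 5740416 to 5740858 had folds of 4.36, 4.86 and 6.65 in NuMA-depleted replicates 1, 2 and 3, from pileups of 16, 26 and 20 fragments. At 7712556 to 7713496 the folds were 5.40, 6.03 and 3.95, with 12, 20 and 11 fragments. At 19844167 to 19844571 they were 5.19, 4.40 and 5.14, with 10, 11 and 10 fragments. The library with the highest fold was a different one in each of the 3 regions. Only the first lay within 5 kb of another peak of a NuMA-depleted library, and the weakest −log10 q of the 3 regions ranged from 3.19 to 5.39.

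Of the 12 wild-type-only regions, 8 lay outside the bin from 15 to 16 Mb. Near the 17p end, the region at 3793386 to 3793743 had folds of 3.59, 4.88 and 5.16 in wild-type replicates 1, 2 and 3, over pileups of 26, 35 and 36 fragments. Next came 6376348 to 6376884, with folds of 3.95, 5.29 and 5.02 and 11, 14 and 14 fragments. At 6881882 to 6882438 the folds were 6.57, 8.92 and 7.42, with 14, 19 and 16 fragments. In these 3 regions replicate 1 was the lowest of the wild-type libraries. The pileups show that a low fold need not mean few fragments: the first region had the lowest fold in replicate 1 and by far the highest pileup, over a background of 6.52 fragments.

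Further along 17p, the region at 8025056 to 8025387 had the lowest folds of the 12, at 2.84, 3.01 and 2.71 in wild-type replicates 1, 2 and 3, with 20, 22 and 20 fragments. Its peaks ranked at percentiles 3.29, 5.21 and 0.951 of their lists, just above the calling threshold. At 10701271 to 10701810 the folds were 4.63, 3.92 and 4.67, with only 10, 7 and 11 fragments. At 12426009 to 12426524 they were 6.33, 9.53 and 7.34, with 11, 18 and 15 fragments. This last region stood apart from NuMA-depleted calls, the nearest of which was 119243 bp away. The nearest other wild-type peak was 22807 bp away.

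The 17q side had 2 wild-type-only regions. At 32526891 to 32527375 the folds were 8.92, 12.3 and 11.7 in wild-type replicates 1, 2 and 3, with 19, 28 and 27 fragments. Its peaks ranked at percentiles 65.9, 84.4 and 87.8 of their lists, and it lay in the bin from 32 to 33 Mb, which has no region called in all 6 libraries. The nearest peak of a NuMA-depleted library was 28243 bp away. At 37788642 to 37789122 the folds were 5.48, 6.48 and 5.77, with larger pileups of 29, 37 and 28 fragments. This region had a NuMA-depleted peak 4114 bp away.

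Over the 3 NuMA-depleted-only regions the fold ranged from 3.95 to 6.65 with a median of 5.14, and over the 12 wild-type-only regions from 2.71 to 13.2 with a median of 5.43. The median over the regions shared by all 6 libraries was 7.51, above the medians of both kinds. Wild-type replicate 2 gave the highest fold in 9 of the 12 and replicate 3 in 3. Replicate 2 also had the highest median fold of the 3 wild-type libraries among the regions shared by all 6. In 6 of the 12, a peak of a NuMA-depleted library lay within 5 kb of the region, and in 4 none lay within 20 kb.

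A stricter reading asks for a strong call in one group and no deposited peak in the other. With presence counted only among the 21783 strongest peaks of each list, and absence requiring no deposited peak at all, 0 of the 3 NuMA-depleted-only regions and 3 of the 12 wild-type-only regions remained. These 3 were the regions at 15732138, 32526891 and 37788642. They are also the 3 with a −log10 q of at least 10 in every wild-type library. The series' share under this rule was not computed, so nothing is read from the 3 against 0.

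**Figure D4:**
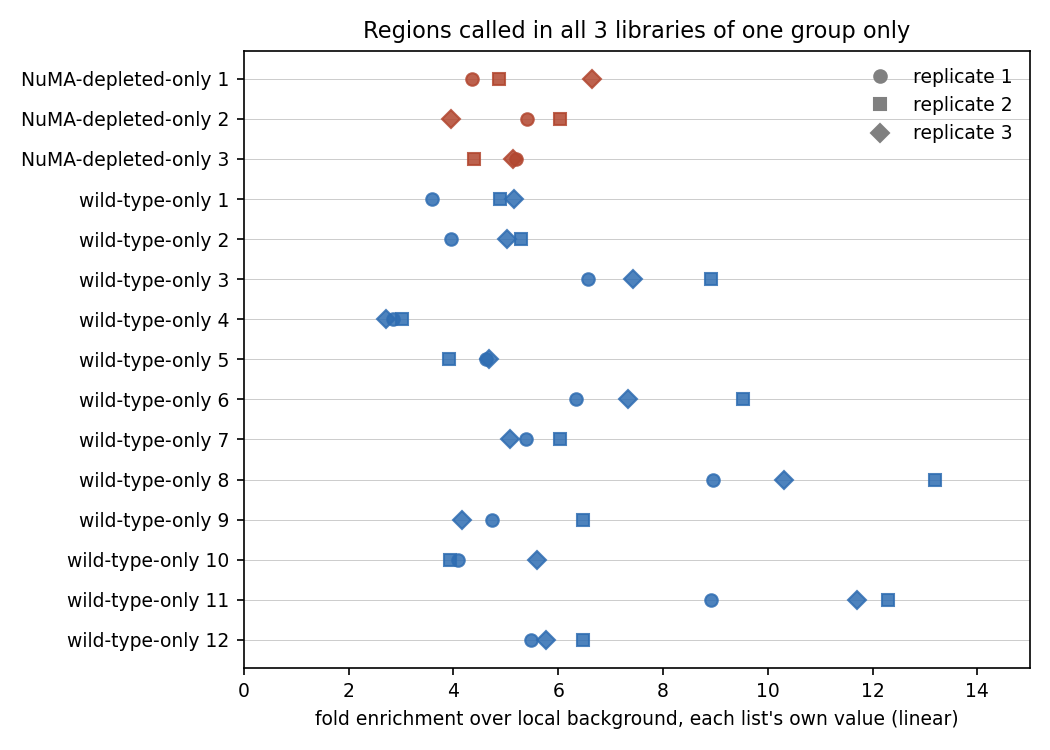
Fold enrichment (x axis, linear, each list's own value) of the 3 NuMA-depleted-only and the 12 wild-type-only regions, numbered from the 17p end, with 1 marker per replicate of the group that called them. Wild-type-only regions 8 and 11 reach 13.2 and 12.3, and no other region exceeds 10.

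The bin from 15 to 16 Mb held 35 regions, with 0 of the 3 NuMA-depleted-only and 4 of the 12 wild-type-only ones. Among the 2583 occupied bins of the series, the highest number of NuMA-depleted-only regions in a bin was 3, in 3 bins. For wild-type-only regions this was the only bin with 4, while 19 bins had 2 and 307 had 1. All 4 wild-type-only regions lay in its second 500 kb, within 308 kb. Since this group was part of the reason for choosing the segment, its rank is a description.

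The bin had 20, 22 and 10 peaks in NuMA-depleted replicates 1, 2 and 3, against 26, 22 and 25 in wild-type replicates 1, 2 and 3. As a share of each list this was 0.0520%, 0.0479% and 0.0459% in the NuMA-depleted libraries, against 0.0732%, 0.0569% and 0.0769% in the wild-type libraries. The shares of the groups did not overlap, at 0.0486 ± 0.0031% for NuMA-depleted and 0.0690 ± 0.0107% for wild-type libraries (SD, n = 3 each). Among the 34 bins of the segment with a mean of at least 5 peaks, this held for 2 in that direction, the other from 28 to 29 Mb, while 5.49% of the series' 2022 such bins did so. In the opposite direction there were 2, from 5 to 6 Mb and from 33 to 34 Mb, beside 6.08% over the series. Counts of 2 in 34 are near these shares. At equal numbers of peaks per list, the bin kept 10, 9 and 10 peaks in the NuMA-depleted libraries, against 13, 11 and 13 in the wild-type libraries. The bin was singled out on these values, so the lack of overlap is a description.

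The first wild-type-only region of the bin, at 15562864 to 15563399, had folds of 5.38, 6.04 and 5.08 in wild-type replicates 1, 2 and 3, with 19, 20 and 20 fragments. Only 1078 bp separated it from the region at 15561088 to 15561785, which was called in every library but NuMA-depleted replicate 3. The second, at 15732138 to 15732382, was the narrowest of the 12 at 245 bp. Its folds were 8.96, 13.2 and 10.3, with 16, 22 and 18 fragments over backgrounds of 0.897, 0.748 and 0.845. Among the 12, these folds were the highest in replicates 1 and 2, while in replicate 3 the region at 32526891 was higher, at 11.7. No NuMA-depleted peak lay closer to the region at 15732138 than 91506 bp. The remaining 2 lay close together in a dense stretch of the bin. They were at 15862321 to 15862794, with folds of 4.73, 6.47 and 4.17 and 24, 31 and 21 fragments, and at 15870017 to 15870510, with folds of 4.08, 3.94 and 5.60 and 14, 13 and 20 fragments.

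That stretch also held regions called in NuMA-depleted libraries. At 15857413 to 15857809 a region was called in NuMA-depleted replicates 2 and 3 with 38 and 23 fragments and in no wild-type library. Further along, and still before the first of the pair, the region at 15860474 to 15860949 was called in NuMA-depleted replicates 1 and 2 and in wild-type replicates 2 and 3. The one at 15866887 to 15867401, between the 2 members of the pair, was called in NuMA-depleted replicates 1 and 2 and in wild-type replicates 1 and 3. Both of these had as many calls in one group as in the other.

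Of the bin's 35 regions, 7 were called in all 6 libraries, 6 in a single library and 22 in 2 to 5. The strongest of the 7 by its weakest −log10 q, at 15554688 to 15555440, had folds of 9.02, 10 and 8.58 in NuMA-depleted replicates 1, 2 and 3 and 9.38, 11.7 and 8.08 in wild-type replicates 1, 2 and 3, which overlap. Of the 22, 5 were missing only in NuMA-depleted replicate 3: those at 15280560 to 15281440, 15561088 to 15561785, 15823889 to 15824574, 15848038 to 15848962 and 15884753 to 15886100. These lacked a call in the shortest list alone. In all, 5 of the 35 were called in more NuMA-depleted than wild-type libraries, 17 in more wild-type than NuMA-depleted libraries, and 13 in as many. Over all regions of the series these classes hold 28.5%, 29.1% and 42.4%, and nothing is read from the difference, since the bin was singled out for its wild-type calls.

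Of the remaining regions of the bin called in 2 to 5 libraries, most mixed the groups and some were called in a single group. At 15074624 to 15075239 a region was called in NuMA-depleted replicate 2 with a fold of 7.28 and in all 3 wild-type libraries with folds of 11.2, 11.4 and 9.78. Only NuMA-depleted replicates 1 and 2 called 15136301 to 15136749, and only wild-type replicates 1 and 2 called 15366844 to 15367350. NuMA-depleted replicates 1 and 2 were joined by wild-type replicates 1 and 2 at 15009470 to 15010474, by wild-type replicate 1 at 15301693 to 15302781, and by wild-type replicates 2 and 3 at 15549036 to 15549505. None of these 6 regions was called in NuMA-depleted replicate 3.

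In the others, 1 or 2 NuMA-depleted libraries stood beside 1 or 2 wild-type ones. The region at 15151571 to 15151905 was called in NuMA-depleted replicate 3 and wild-type replicate 1, and that at 15553281 to 15553583 in NuMA-depleted replicates 1 and 3 and wild-type replicate 1. The region at 15406241 to 15406601 was called in NuMA-depleted replicate 2 and wild-type replicates 1 and 3, and that at 15466584 to 15466877 in NuMA-depleted replicate 2 and wild-type replicate 3. At equal numbers of peaks per list the bin held 21 regions, of which 0 were NuMA-depleted-only and 2 wild-type-only, at 15074624 to 15075239 and 15732138 to 15732382. The first of these had a deposited peak in NuMA-depleted replicate 2 that fell below the cut.

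**Figure D5:**
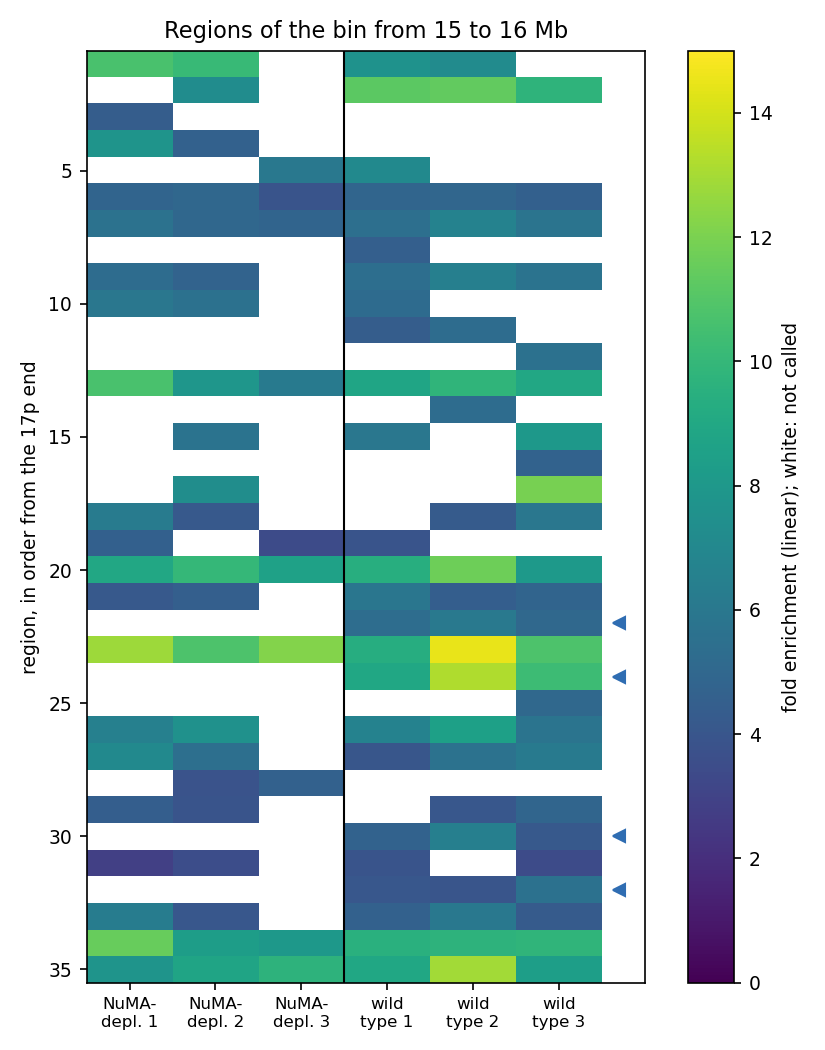
Fold enrichment (colour, linear, each list's own value) of the 35 regions of the bin from 15 to 16 Mb (rows, in order from the 17p end) in the 6 libraries (columns), white where no peak was called. Triangles mark the 4 wild-type-only regions; NuMA-depleted replicate 3 has 10 called regions, and every other library at least 20.

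The other bins whose shares did not overlap between the groups held few group-only regions. From 28 to 29 Mb there were 13, 18 and 5 peaks in NuMA-depleted replicates 1, 2 and 3 and 17, 20 and 13 in wild-type replicates 1, 2 and 3, at shares of 0.0320 ± 0.00828% for NuMA-depleted and 0.0465 ± 0.00597% for wild-type libraries. From 5 to 6 Mb there were 18, 23 and 11 in NuMA-depleted libraries, against 14, 18 and 12 in wild-type libraries, at shares of 0.0491 ± 0.00204% for NuMA-depleted and 0.0410 ± 0.00498% for wild-type libraries. From 33 to 34 Mb there were 24, 29 and 14 in NuMA-depleted libraries, against 19, 23 and 20 in wild-type libraries, at shares of 0.0633 ± 0.000942% for NuMA-depleted and 0.0582 ± 0.00416% for wild-type libraries (SD, n = 3 each). Of these bins only the one from 5 to 6 Mb had a group-only region, the NuMA-depleted-only region at 5740416.

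For the 324 regions shared by all 6 libraries, the median fold was 8.03, 7.99 and 6.14 in NuMA-depleted replicates 1, 2 and 3 and 7.18, 8.47 and 7.51 in wild-type replicates 1, 2 and 3, and their median pileup was 36.0, 48.0 and 22 fragments in the NuMA-depleted libraries, against 28.0, 32.0 and 29.0 in the wild-type libraries. Since folds are each list's own, these regions were also ranked by fold within each library among the 17009 regions called in all 6 across the series. The segment's median percentile was 44.4, where 50 is the middle of the series by construction. In 14 regions (4.32%, beside 6.21% over the series) the rank was lower in every NuMA-depleted than in every wild-type library. In 24 regions (7.41%, beside 6.75%) it was higher. Both shares were near those of the series.

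The summits of these regions were spread about as far as those of the series' shared regions. Among the 298 of them with exactly 1 peak per library, the distance between the outermost summits had a median of 148 bp, where the series had 157 bp. In 20 of the 298 (6.71%, beside 7.40% over the series) all summits lay within 50 bp. The median width of all 324 was 940 bp, beside 914 bp over the series' shared regions.

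Ranked by the weakest −log10 q over the libraries, the strongest shared region lay at 12920727 to 12921880. Its folds were 11.8, 9.52 and 11.6 in NuMA-depleted replicates 1, 2 and 3 and 11.3, 13.0 and 11.7 in wild-type replicates 1, 2 and 3, with pileups of 74, 88 and 61 fragments in the NuMA-depleted libraries, against 67, 75 and 73 in the wild-type libraries. The second lay at 14203945 to 14204691, inside the bin with the fewest regions, with folds of 10.1, 9.67 and 12.9 in NuMA-depleted libraries, against 10.2, 10.9 and 10 in wild-type libraries. In both the folds of the groups overlapped. Both stood apart from other shared regions, the nearest of which were 227013 bp and 94014 bp away. The strongest did have other peaks closer by, 5908 bp away in a NuMA-depleted and 5937 bp away in a wild-type library. The one ranked next, at 2951943 to 2952814, had folds of 14.5, 11.2 and 12.5 in NuMA-depleted libraries, against 10.9, 13.3 and 11.8 in wild-type libraries.

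Of the next 7, 2 were on the 17p side of 20 Mb, at 17875174 to 17876305 and 19280727 to 19281972, with mean folds over the 6 libraries of 9.03 ± 0.899 and 8.24 ± 0.565 (SD). A further 2 lay between 20 Mb and the gap, at 20058985 to 20059991 and 21029893 to 21030794, with 10.6 ± 1.39 and 10.2 ± 0.523. The other 3 were on the 17q side, at 25659380 to 25660754, 26662271 to 26663817 and 28926932 to 28927941, with 8.75 ± 0.839, 8.82 ± 0.822 and 10.8 ± 0.531. The last had the smallest range of these 3, from 9.89 to 11.3 over the 6 libraries.

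Width and strength did not go together at the top. The widest shared region, 2057 bp at 27505767 to 27507823, had folds of 4.81, 4.25 and 3.39 in NuMA-depleted replicates 1, 2 and 3 and 5.86, 5.17 and 4.97 in wild-type replicates 1, 2 and 3. Its folds were lower in every NuMA-depleted than in every wild-type library, and its summits lay up to 1213 bp apart. The 4 next widest were at 9478799 to 9480830, 29151252 to 29153229, 37308914 to 37310801 and 34899908 to 34901761, with mean folds over the 6 libraries of 5.95 ± 0.415, 6.24 ± 0.378, 5.59 ± 1.29 and 5.91 ± 0.374 (SD). All 5 had mean folds under the 7.51 that was the median of the shared regions. At 37308914 the fold in NuMA-depleted replicate 3 was 3.14, with 12 fragments, while the other libraries ranged upward from 5.67.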

How the data were processed

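The 6 ATAC-seq libraries of HCT116 cells, 3 NuMA-depleted and 3 wild-type by their genotype label, were analysed. The tools named in the submitters' processing notes are Bowtie2 2.4.1, Picard and Trim Galore, and the build named there is hg19. Each library has its own deposited peak list. Per the peak names in the files, the lists came from a folder called macs2, and the names carry an unexplained tag, combine. The caller's settings, a shift of reads for the transposase, and filters on artefact-prone regions were not given in the sources used. The labels' protocols give 2 different cell numbers per sample, so none is printed.

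The deposited columns hold, besides the interval and summit offset, the fold enrichment (a linear ratio), the −log10 of the p-value and of the q-value, and a score that was not used. The smallest −log10 q the authors deposited was 2.0, that is, the threshold of the lists.

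Peaks were merged at 1 bp or more across all 6 lists, and a region belongs to the segment by its position on chromosome 17. The fragment pileup and local background of a peak were recovered from fold and −log10 p under a Poisson model with 1 added to both terms of the fold, tested on simulated data. The pileup came out whole for between 99.986% and 99.994% of each list's peaks, within 0.01 on the −log10 p scale. Depth in reads is unknown; relative depth is the smallest background divided by the smallest peak width, which assumes that this width is the caller's fragment length. Peaks were put in 1 Mb bins, and shares are percents of the library's whole list. A bin counts as occupied where it holds a region; the bin that straddles the limit was left out of densities. The segment was compared with other parts of the genome by a two-sided exact permutation test (64 sign flips over 6 within-library differences), Benjamini-Hochberg adjusted over 8 comparisons.

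The segment, its limit and the rules were chosen with earlier results of these data known. Named regions are all group-only regions, the bin from 15 to 16 Mb, the 10 shared regions with the highest weakest −log10 q, the 5 widest shared, and those beside the limit and the largest gap. The 5 kb and 20 kb distances were chosen after the values were seen. Python 3.11.15, numpy 2.4.6, pandas 2.3.3 and scipy 1.17.1 were used. The alternatives tried were equal numbers of peaks per list, only peaks reaching a −log10 q of 5, cover of at least 50% of the merged region, presence in 2 of 3 libraries, 500 kb bins, a 5 kb gap and leaving out each library.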

Additional observations from a re-analysis of the deposited data

How the results depend on the processing

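No paired analysis was possible because no test was run between the groups; the sign flips pair parts of the genome within a library. The mean number of peaks in the segment, NuMA-depleted minus wild type, was −22.7 and had no stable sign: it was 2.33 where peaks needed a −log10 q of 5 or more, −17.0 at equal numbers, and ranged from −130 without NuMA-depleted replicate 2 to 127 without NuMA-depleted replicate 3, with −65.3 without NuMA-depleted replicate 1, −46.3 without wild-type replicate 1 and 11.2 without wild-type replicate 2. NuMA-depleted-only regions, 3 at the deposited lists, numbered 8 at equal numbers of peaks and 56 where 2 of 3 libraries sufficed, and ranged from 3 to 52 when 1 library was left out, with 7 without NuMA-depleted replicate 1, 52 without NuMA-depleted replicate 3, 5 without wild-type replicate 1 or 2 and 7 without wild-type replicate 3. Wild-type-only regions, 12 at the deposited lists, numbered 37 where 2 of 3 libraries sufficed and ranged from 13 to 29 when 1 library was left out, with 29 without NuMA-depleted replicate 2, 25 without wild-type replicate 1 and 21 without wild-type replicate 3. At equal numbers, 0 of the 3 and 3 of the 12 kept their call. Regions called in all 6 libraries numbered 166 where a library's peaks had to cover at least 50% of the region. Leaving out a library lowers the number of libraries that must call, or must lack, a region, so the original 3 and 12 keep their call by construction. The difference in median fold between the segment and the rest of chromosome 17, −0.00646, turned to 0.166 at equal numbers and to 0.0424 where peaks needed a −log10 q of 5 or more, and ranged from −0.0373 to 0.0421 when 1 library was left out; the difference in median width, 1.5 bp, was 6.50 bp at that q and 14.3 bp at equal numbers, and ranged from −2.20 to 5.40 bp when 1 library was left out. The cause was not tested. Among the 68 alternatives to the tested differences, 62 kept their direction and 6 reversed. Equal numbers within the bin from 15 to 16 Mb, and strong presence with no deposited peak in the other group, were chosen after seeing the data. With 5 libraries the smallest exact permutation p is 0.0625, so leaving one out cannot pass 0.05. Depth limits absence: the smallest recovered pileup of a called peak was 7, 8 and 7 fragments in the NuMA-depleted and 6, 6 and 6 in the wild-type libraries.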
